A study of Mus musculus with 12 samples.

Results

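The expression of 53 cell cycle and DNA replication genes was followed in the ileal and colonic mucosa of mice lacking the manganese transporter gene Slc39a8 in the intestinal epithelium and of control mice. The genes were chosen by name as markers of dividing cells. Each of the 53 symbols matched 1 gene among the 53715 genes of the table, and all 53 passed the filter on low counts that left 16558 genes for testing. RNA of whole mucosa came from 8-week-old male C57BL/6J mice and gave 12 libraries, 3 of each genotype from ileum and 3 of each from colon. The sample labels give the controls as Slc39a8-fl/fl and the KO mice as Slc39a8-fl/fl:Villin-Cre, so the floxed allele is shared by all groups as labelled. By the methods of the study, floxed animals, wild-type animals and animals with Villin-Cre alone all served as controls. The Villin promoter drives Cre in intestinal epithelial cells and leaves the other cells of the mucosa intact. Neither source says whether an ileal and a colonic library came from the same mouse, and the libraries were treated as independent.

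Dividing cells copy their DNA in S phase and separate the copies in mitosis. Before S phase, Cdc6 and Cdt1 load the Mcm helicase onto replication origins, and polymerases, the sliding clamp Pcna, nucleases and ligases then copy the strands. Cyclins and Cdk1 drive entry into mitosis, in which kinetochores, motor proteins and checkpoint kinases sort the chromosomes. In the intestinal epithelium, division takes place in the crypts, where stem cells and their transit-amplifying daughters renew the lining. Lymphoid follicles of the gut wall also hold dividing cells. In RNA from whole mucosa, fewer cells of a type and less RNA per cell cannot be told apart.

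The libraries held between 16749138 and 27903083 expected counts. Levels are given as CPM, read counts divided by library sizes that were scaled with TMM factors, and, where different genes are compared, as TPM, which also divides by gene length. Slc39a8 itself stood at 8.39, 5.22 and 6.59 CPM in the ileal control libraries (replicates 1 to 3, the order used throughout) and at 4.35, 2.62 and 2.80 CPM in the ileal KO libraries. In colon it stood at 20.8, 20.5 and 20.1 CPM in control mice and at 7.35, 11.5 and 7.93 CPM in KO mice, so the genotypes did not overlap in either tissue. The edgeR log2 fold change of Slc39a8 over both tissues was -1.13 (SE 0.17, unadjusted p = 2.31e-05, adjusted p = 0.382). Ileal and colonic labels were borne out by the 4 Paneth cell markers, which summed to 4250 to 13100 CPM in ileum and 5.13 to 12 CPM in colon. Ileal control replicate 3 and ileal KO replicate 1 stood apart from the other libraries: the 6 smooth muscle markers summed to 34.2 and 20.2 CPM there, against 1810 to 2640 CPM in the other 4 ileal libraries and 2540 to 3950 CPM in the colonic ones. Results that rest on ileum are therefore also given without these 2 libraries.

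To show what the members share beyond their roles, promoter sequences (RefSeq, GRCm38.p6) were searched from 250 bases before to 50 bases after each gene's start. At least 1 such window of 300 bases was found for 45 of the 53 genes, and these gave 50 windows. Foxm1, Ccna2, Aurkb, Kif20a, Tpx2, Mcm4, Gins1 and Gins2 had none. Searched on both strands were the cell cycle genes homology region (CHR, TTTGAA or TTCGAA), the CCAAT box (CCAAT), and an E2F motif of 8 letters (TTTCCCGC, TTTCGCGC, TTTGCCGC or TTTGGCGC). A shorter E2F form without the first T was counted too, and it lies inside every match of the longer form. The CHR was held by 16 of the 21 windows of the lists of mitotic genes (76.2%) and by 4 of the 24 windows of the lists of replication genes (16.7%), against 19.2% of all 32851 promoter windows. The E2F motif of 8 letters was held by 0 of the 21 mitotic windows and by 9 of the 24 replication windows (37.5%), against 2.26% of all windows. With the shorter form these counts were 1 of 21 and 17 of 24, against 9.57% of all windows. The CCAAT box was held by 15 of the 21 mitotic and 15 of the 24 replication windows, against 37.4% of all windows. A match is a description of the letters in the window and not evidence of binding.

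The 5 stretches below give the 150 bases before the RefSeq start, 5′ to 3′ along the gene, with every match of the CHR, the CCAAT box and the E2F motif of 8 letters on either strand in capitals. They were chosen after their matches were seen, to show the CHR and CCAAT pattern of mitotic genes (Top2a, which untangles DNA, and Cdc20 and Ube2c, which act in the ubiquitin-driven exit from mitosis), the E2F pattern of a replication gene (Mcm6, a helicase subunit), and both in Cdk1, the mitotic kinase. They lie at chr11:99024190-99024339 (minus strand), chr4:118437344-118437493 (minus strand), chr2:164769779-164769928 (plus strand), chr1:128359706-128359855 (minus strand) and chr10:69352913-69353062 (minus strand), in the order of the genes just named. The numbers of matches in these stretches are 3 CHR and 4 CCAAT boxes in Top2a, 1 and 2 in Cdc20, 1 and 2 in Ube2c, and 2 and 2 in Cdk1. Cdk1 also holds 1 E2F match, and Mcm6 holds 3 E2F matches, of which 2 on opposite strands overlap, and 2 CCAAT boxes.
Top2a: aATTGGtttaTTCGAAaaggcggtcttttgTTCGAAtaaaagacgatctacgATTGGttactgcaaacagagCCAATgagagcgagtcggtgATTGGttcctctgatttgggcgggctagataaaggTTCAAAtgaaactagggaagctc
Cdc20: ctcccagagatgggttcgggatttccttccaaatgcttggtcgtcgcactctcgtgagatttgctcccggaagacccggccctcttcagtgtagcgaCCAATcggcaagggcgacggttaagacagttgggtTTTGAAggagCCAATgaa
Ube2c: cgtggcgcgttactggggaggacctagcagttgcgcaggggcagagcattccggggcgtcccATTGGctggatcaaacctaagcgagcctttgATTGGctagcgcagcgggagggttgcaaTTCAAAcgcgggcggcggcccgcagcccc
Mcm6: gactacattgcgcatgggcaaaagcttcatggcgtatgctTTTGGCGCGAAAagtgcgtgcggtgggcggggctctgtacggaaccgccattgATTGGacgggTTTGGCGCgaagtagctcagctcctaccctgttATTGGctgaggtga
Cdk1: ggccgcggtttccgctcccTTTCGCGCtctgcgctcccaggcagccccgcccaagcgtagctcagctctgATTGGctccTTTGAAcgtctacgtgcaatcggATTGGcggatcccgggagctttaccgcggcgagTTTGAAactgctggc

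Every one of the 53 genes had a lower mean level in colon than in ileum, in control and in KO mice, with TMM scaling. In control mice edgeR called 43 of the 53 lower in colon and 0 higher at an adjusted p under 0.1, while 19.6% of all tested genes were called lower and 16.2% higher. In KO mice 41 of the 53 were called lower and 0 higher, against 20% and 17.1% of all tested genes. The KO libraries are separate from the control ones, but both tests used 1 estimate of the spread taken from all libraries. The median log2 fold change of the 53 genes was -1.33 in control and -1.17 in KO mice, beside medians of 0.02 and 0.01 over all tested genes. The genes called in both genotypes numbered 38. Without overlap between the libraries of the tissues, 41 genes were lower in colon in control and 45 in KO mice, against 20.4% and 24.9% of all tested genes, and 0 were higher, against 20.3% and 25.5%. In both genotypes this held for 38 genes, against 17% of all tested genes. Called in control mice alone were Ccnb1, Bub1, Cdc6, Prim1 and Tyms, and in KO mice alone E2f1, Cenpa and Ndc80. For none of these 8 genes, and for no gene at all, did edgeR call the difference between the tissue effects of the genotypes.

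**Figure D1:**
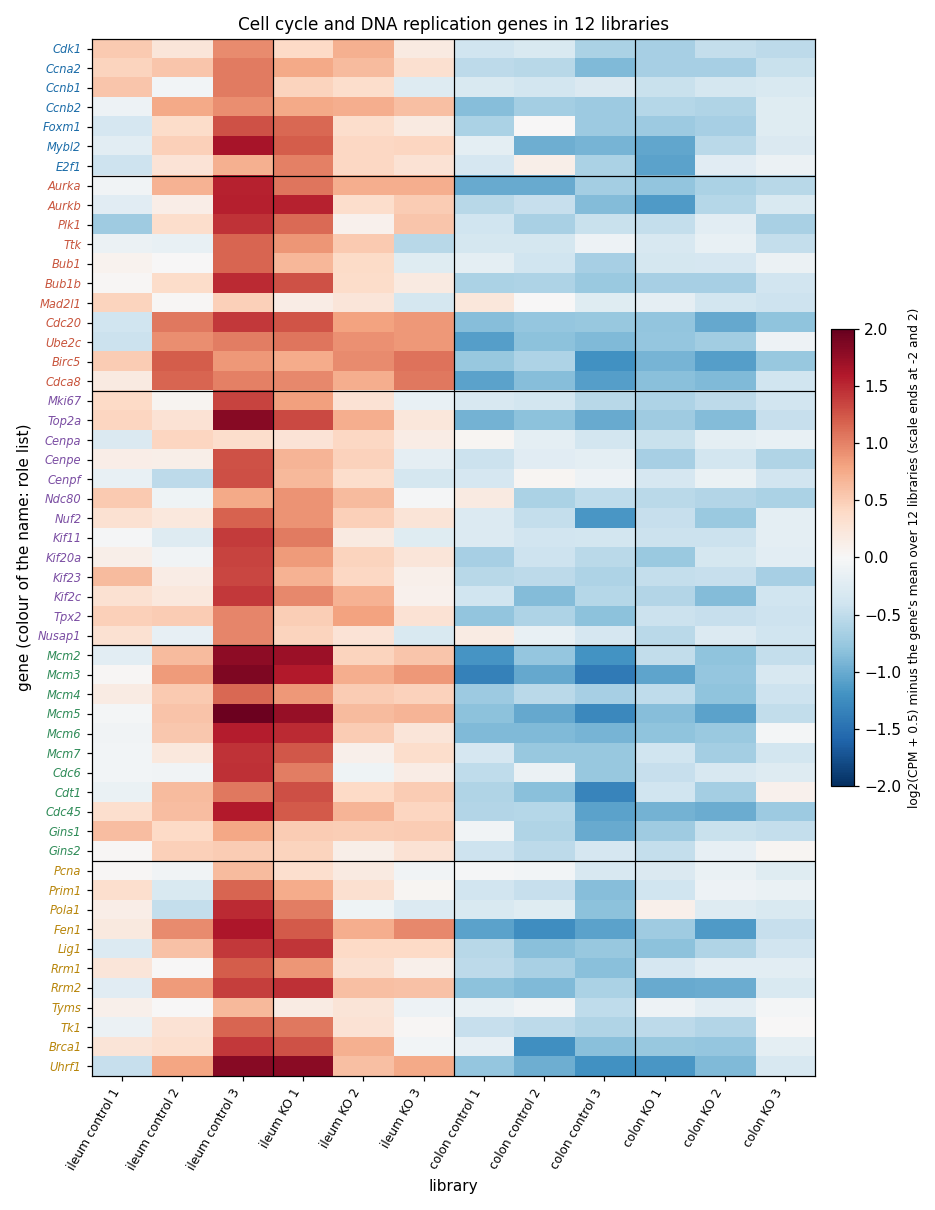
Levels of the 53 genes (rows, grouped and coloured by role) in the 12 libraries (columns), as log2(CPM + 0.5) minus the mean of the gene over all libraries. Ileal libraries are mostly red (above the mean) and colonic ones mostly blue, and ileal control replicate 3 and ileal KO replicate 1 hold the deepest red: 44 genes were highest among the 6 ileal libraries in the former and 6 in the latter.

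For 31 of the 53 genes, the lowest of the 6 ileal libraries lay above the highest of the 6 colonic libraries, against 14.7% of all tested genes. These 31 include Cdk1, Ccna2, Mki67, Top2a, 5 of the 6 Mcm subunits, Fen1 and Lig1. The 4 ileal libraries with the usual muscle RNA stood above all colonic libraries for the same 31 genes, against 19.4% of all tested genes. Neither library with little muscle RNA was the lowest ileal library for any of the 53 genes. Leaving them out could therefore not change the 31, and this match is no test of their influence. The levels of the 53 genes summed to 977, 1070 and 2060 CPM in ileal control libraries, 1650, 1190 and 1000 CPM in ileal KO libraries, 637, 621 and 546 CPM in colonic control libraries and 586, 607 and 683 CPM in colonic KO libraries. The tissues therefore did not overlap in the sum, while the genotypes did within each tissue. The highest colonic library was a median of 1.53 times the lowest over the 53 genes, beside 1.56 over all tested genes, and the highest ileal library 2.83 times the lowest, beside 1.95 over all tested genes.

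The cyclins, Cdk1 and the transcription factors of the cell cycle were called lower in colon in 6 of 7 genes in each genotype, with a median log2 fold change of -1.08 in control and -1.18 in KO mice. Ccna2, the cyclin of S phase and early mitosis (chr3:36564865-36572150, GRCm38), was the member of this list with the highest TPM and the smallest p. In control mice it was measured at 53, 56.8 and 79.9 CPM in ileum and at 26.7, 26.1 and 20.8 CPM in colon. The KO libraries gave 65.8, 60.4 and 48.4 CPM in ileum and 24.3, 24.2 and 28.3 CPM in colon. All 6 ileal libraries thus stood above all 6 colonic ones, and the log2 fold change was -1.37 in control (SE 0.18, adjusted p = 2e-04) and -1.18 in KO mice (SE 0.18, adjusted p = 0.000553). Ccnb1, the main mitotic cyclin (chr13:100778650-100786570), had ileal levels of 31.7, 20.6 and 44.5 CPM in control and 29.3, 27.7 and 17.8 CPM in KO mice. Its colonic levels were 17.3, 16.6 and 17.5 CPM in control and 15.7, 16.7 and 17.3 CPM in KO mice. Ccnb1 fell in the control comparison (log2 fold change -0.92, SE 0.25, adjusted p = 0.0191) and had a value of -0.59 in the KO comparison (SE 0.25, adjusted p = 0.105). E2f1, a transcription factor that activates replication genes, was at -0.60 in control mice (SE 0.42, adjusted p = 0.321) and was called in KO mice (-1.17, SE 0.43, adjusted p = 0.0609).

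Among the mitotic kinases, checkpoint proteins and anaphase regulators, 9 of 11 were called lower in colon in control and 8 of 11 in KO mice, with medians of -1.51 and -1.47. Ube2c, the ubiquitin-conjugating enzyme of the anaphase-promoting complex (chr2:164769898-164778822), had the highest TPM of the list. It stood at 12.5, 32.8 and 35.1 CPM in ileal control libraries, 36.2, 32.6 and 31.4 CPM in ileal KO libraries, 7.63, 9.45 and 9.04 CPM in colonic control libraries and 9.75, 10.3 and 15.9 CPM in colonic KO libraries. Its log2 fold change was -1.62 in control (SE 0.33, adjusted p = 0.00356) and -1.47 in KO mice (SE 0.33, adjusted p = 0.00593), although ileal control replicate 1 lay below colonic KO replicate 3. Birc5, the survivin subunit of the chromosomal passenger complex (chr11:117849251-117855743), had the smallest p. Its ileal levels were 22.9, 37.6 and 29.6 CPM in control and 27.1, 31.1 and 34.5 CPM in KO mice, and its colonic levels 9.27, 10.2 and 6.64 CPM and 8.10, 7.20 and 9.26 CPM. These values are more than 2-fold apart at their closest, and the log2 fold change was -1.79 in control (SE 0.22, adjusted p = 0.000103) and -1.91 in KO mice (SE 0.22, adjusted p = 6.67e-05). Mad2l1, an inhibitor of anaphase in the spindle checkpoint (chr6:66535390-66547220), was not called in either genotype, nor was the checkpoint kinase Ttk. Mad2l1 was measured at 30.2, 22.3 and 30.6 CPM in ileal control libraries, 24.4, 26.1 and 17.1 CPM in ileal KO libraries, 25.8, 22.1 and 18.4 CPM in colonic control libraries and 19.4, 16.9 and 16.3 CPM in colonic KO libraries. The tissues overlapped, with log2 fold changes of -0.33 (SE 0.20, adjusted p = 0.239) and -0.36 (SE 0.20, adjusted p = 0.194).

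The genes of chromosomes, kinetochores and spindle motors were called lower in colon in 8 of 13 members in control and 10 of 13 in KO mice, with medians of -1.12 and -0.99. Mki67, the proliferation antigen that coats mitotic chromosomes (chr7:135689784-135716361), had the highest TPM of the list. It was measured at 121, 94.5 and 233 CPM in ileal control libraries, 161, 112 and 82.1 CPM in ileal KO libraries, 73.4, 70.9 and 62.0 CPM in colonic control libraries and 59.6, 63.7 and 69.8 CPM in colonic KO libraries. All ileal libraries were above all colonic ones, and its log2 fold change was -1.12 in control (SE 0.31, adjusted p = 0.0187) and -0.88 in KO mice (SE 0.31, adjusted p = 0.0521). Without ileal control replicate 3 the control value was -0.67, and the KO call of Mki67 was lost without ileal KO replicate 1 (-0.60, adjusted p = 0.184) and without any 1 of the 3 colonic KO libraries (adjusted p = 0.102 to 0.145). Tpx2, which activates Aurora A on spindle microtubules (chr2:152847964-152895321), varied less. Its levels were 21.2, 21.7 and 30.4 CPM in ileal control libraries, 21.6, 26.9 and 18.6 CPM in ileal KO libraries, 8.55, 9.74 and 8.33 CPM in colonic control libraries and 11.1, 10.9 and 11.2 CPM in colonic KO libraries. For Tpx2 the log2 fold change was -1.46 in control (SE 0.18, adjusted p = 0.000134) and -1.02 in KO mice (SE 0.18, adjusted p = 0.00157). Kif23, a motor of the central spindle (chr9:61915905-61946774), fell from 20.8, 14.8 and 34.2 CPM to 8.86, 9.12 and 8.47 CPM in control mice (log2 fold change -1.40, SE 0.27, adjusted p = 0.00255). In KO mice it fell from 21.9, 17.9 and 14.3 CPM to 9.38, 9.58 and 8.18 CPM (-0.99, SE 0.27, adjusted p = 0.017). Not called in either genotype were the kinetochore protein Cenpf and the spindle proteins Kif11 and Nusap1.

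Replication licensing and helicase genes had medians of -1.61 in control and -1.23 in KO mice, and 11 of 11 were called lower in colon in control and 10 of 11 in KO mice. Mcm3, a subunit of the helicase ring (chr1:20802968-20820312), had the largest fall of the 53 genes in control mice. Its levels were 9.92, 18.1 and 37.0 CPM in ileal control libraries, 30.3, 16.4 and 18.3 CPM in ileal KO libraries, 3.53, 4.56 and 3.34 CPM in colonic control libraries and 4.43, 5.49 and 7.72 CPM in colonic KO libraries. The control fold change was -2.51 on the log2 scale (SE 0.44, adjusted p = 0.00141) and the KO one -1.88 (SE 0.43, adjusted p = 0.00705). Mcm6 of the same ring (chr1:128331590-128359664), the list's most abundant gene by TPM, stood at 22.3, 34.2 and 70.6 CPM in ileal control libraries, 66.8, 33.5 and 27.7 CPM in ileal KO libraries, 12.4, 12.4 and 12 CPM in colonic control libraries and 13.2, 13.7 and 22.6 CPM in colonic KO libraries. Ileal control replicate 1 lay just below colonic KO replicate 3 for Mcm6, and its fold change was -1.79 in control (SE 0.43, adjusted p = 0.00908) and -1.37 in KO mice (SE 0.42, adjusted p = 0.0314). The KO call of Mcm6 was lost without ileal KO replicate 1 (-0.89, adjusted p = 0.125), colonic KO replicate 1 (-1.26, adjusted p = 0.109) or colonic KO replicate 2 (-1.25, adjusted p = 0.11). Cdt1, which loads the ring onto origins (chr8:122568015-122573554), had ileal levels of 6.26, 11 and 15.0 CPM in control and 17.7, 9.30 and 10.1 CPM in KO mice, and colonic levels of 4.40, 3.69 and 2.49 CPM and 5.14, 4.14 and 7.43 CPM. It fell by 1.61 on the log2 scale in control mice (SE 0.38, adjusted p = 0.00864) and by 1.15 in KO mice (SE 0.37, adjusted p = 0.0391).

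Genes of DNA synthesis, nucleotide supply and the copying of chromatin were called lower in colon in 9 of 11 members in control and 7 of 11 in KO mice, with medians of -1.27 and -0.89. Pcna, the sliding clamp of the polymerases (chr2:132249162-132253314), was by TPM the most abundant of all 53 genes in each group, at means of 91.5 TPM in ileal control, 91.7 in ileal KO, 81.7 in colonic control and 89.0 in colonic KO mice. Ccna2, which came next in ileum, had means of 31.1, 30.3, 13.9 and 16.9 TPM. Pcna was also among the genes with the smallest tissue difference. Its CPM values were 94.4, 88.4 and 144 in ileal control, 117, 105 and 88.3 in ileal KO, 91.5, 89.2 and 74.0 in colonic control and 76.0, 84.3 and 78.5 in colonic KO libraries, and the tissues overlapped. The log2 fold change of Pcna was -0.36 in control (SE 0.18, adjusted p = 0.169) and -0.38 in KO mice (SE 0.18, adjusted p = 0.147), and it passed the threshold without ileal control replicate 2 (control comparison -0.49, adjusted p = 0.0832) and without ileal control replicate 3 (KO comparison -0.38, adjusted p = 0.0476). Fen1, the nuclease that trims Okazaki fragments (chr19:10199132-10204169), had the smallest p of the list. Its levels were 10.8, 18.5 and 29.7 CPM in ileal control libraries, 22.4, 15.8 and 18.7 CPM in ileal KO libraries, 4.20, 3.65 and 4.19 CPM in colonic control libraries and 5.47, 3.99 and 6.60 CPM in colonic KO libraries, with log2 fold changes of -2.30 (SE 0.33, adjusted p = 0.000365) and -1.82 (SE 0.33, adjusted p = 0.00155). Uhrf1, which carries DNA methylation onto the new strand (chr17:56303321-56323486), had the largest fall in KO mice. It stood at 8.45, 20.6 and 42.7 CPM in ileal control libraries, 42.5, 18.2 and 20.3 CPM in ileal KO libraries, 6.71, 5.76 and 4.80 CPM in colonic control libraries and 4.95, 6.16 and 9.34 CPM in colonic KO libraries. Its log2 fold change was -2.06 in control (SE 0.52, adjusted p = 0.0123) and -1.98 in KO mice (SE 0.52, adjusted p = 0.0145).

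**Figure D2:**
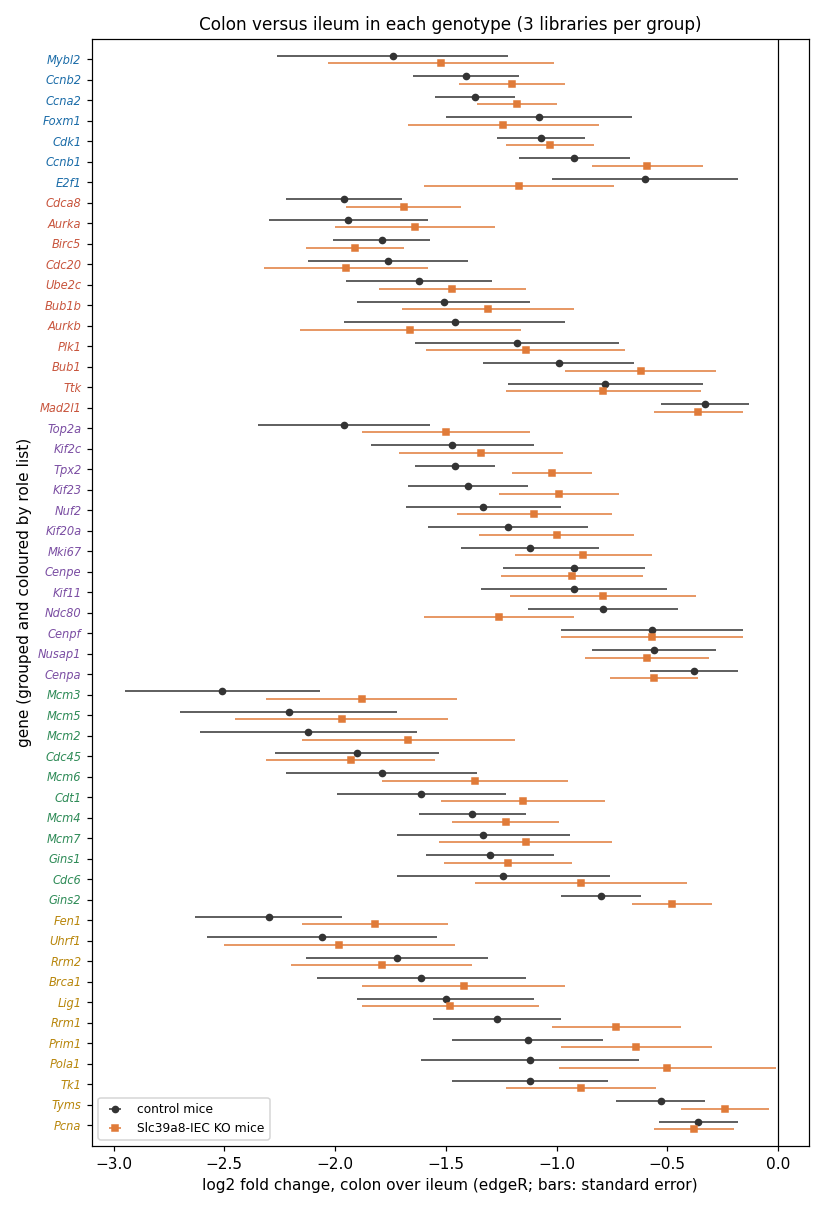
Log2 fold change of colon over ileum with its standard error (edgeR, TMM scaling) for each of the 53 genes in control mice (circles) and Slc39a8-IEC KO mice (squares), grouped by role. All points lie left of 0, from -2.51 for Mcm3 to -0.24 for Tyms. Relative to epithelial markers instead, 40 control and 31 KO values were below 0.

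The tissue difference kept its direction but was smaller without the 2 ileal libraries with little muscle RNA. There 37 genes were called lower in control mice and 39 in KO mice. The medians were -0.94 and -0.88, against -1.33 and -1.17 with every library. Over all genes, 3722 were then called lower and 3370 higher in control mice, against 3251 and 2689 with every library. In KO mice these all-gene counts were 3667 and 3631, against 3312 and 2837. Single libraries moved the count in KO mice by more than 1.5-fold: 23 genes were called lower without ileal KO replicate 1, 25 without colonic KO replicate 1 and 26 without colonic KO replicate 2. Over all genes, 2967, 2644 and 2406 were called lower in these settings, in the same order. Epithelial markers moved with the tissue as well. All 6 were called lower in colon in each genotype, with a median log2 fold change of -0.89 in control mice, and their sum was 18000 to 22500 CPM in ileum and 8900 to 10200 CPM in colon. When libraries were scaled to this sum, the median of all tested genes shifted to 0.99 in control and 1.13 in KO mice. On that scale the median of the 53 genes was -0.38 in control mice, with 12 called lower and 3 higher, and -0.06 in KO mice, with 5 called lower and 5 higher. Of all 16558 tested genes, 5.42% were then called lower and 70.2% higher in control mice, and 4.54% lower and 75.9% higher in KO mice. The distance of the 53 genes from the median of all genes, -1.35 in control and -1.18 in KO mice with TMM, was then -1.37 and -1.19. A change of scaling shifts all genes by nearly the same amount, so this distance could hardly change and is no test of the tissue difference. The part of epithelial RNA in the tissue difference was not tested.

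Of 61 further genes of the cell cycle, 34 were called lower and 2 higher in colon in control mice, and 35 lower and 3 higher in KO mice. Among all tested genes 19.6% were called lower and 16.2% higher in control mice, and 20% and 17.1% in KO mice. Of the other mitosis genes 14 of 19 were called lower in control and 16 of 19 in KO mice, and of the other replication genes 11 and 10 of 18. Melk, a kinase of dividing cells, had the smallest p of the mitosis list: its levels were 14.4, 16.4 and 24.8 CPM in ileal control libraries, 18.4, 19.3 and 15.3 CPM in ileal KO libraries, 4.20, 4.94 and 3.72 CPM in colonic control libraries and 4.33, 4.35 and 5.52 CPM in colonic KO libraries (log2 fold changes -2.11, SE 0.23, adjusted p = 4.74e-05, and -1.90, SE 0.23, adjusted p = 1e-04). Rpa2, a subunit of the complex that coats single-stranded DNA, stood at 9.12, 14.8 and 17.5 CPM in ileal control and 5.32, 5.33 and 4.28 CPM in colonic control libraries, and at 17.2, 14.8 and 12.6 against 5.75, 4.61 and 6.81 CPM in KO mice. Its log2 fold changes were -1.47 (SE 0.26, adjusted p = 0.00126) and -1.37 (SE 0.25, adjusted p = 0.00194). Orc1, a subunit of the origin recognition complex, had the smallest p of the replication list with a positive value. It was at 1.26, 1.44 and 4.72 CPM in ileal control libraries, 3.28, 2.77 and 2.13 CPM in ileal KO libraries, 3.07, 3.07 and 3.44 CPM in colonic control libraries and 3.06, 4.87 and 3.49 CPM in colonic KO libraries, with log2 fold changes of 0.35 (SE 0.45, adjusted p = 0.593) and 0.48 (SE 0.44, adjusted p = 0.449). Without ileal control replicate 3 the control value of Orc1 was 1.21 (adjusted p = 0.0167). Without both ileal libraries with little muscle RNA the values were 1.21 (adjusted p = 0.0095) and 0.63 (adjusted p = 0.0995).

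The G1 list, which holds the cyclins and kinases of G1, their inhibitors and the pocket proteins, had 9 of 24 genes called lower and 2 called higher in colon in control mice, and 9 called lower and 3 higher in KO mice, against the same shares of all tested genes. Called higher were the kinase inhibitors Cdkn1b and Cdkn1c in both genotypes and the cyclin Ccnd3 in KO mice. Cdkn1c was measured at 10.2, 7.83 and 6.33 CPM in ileal control libraries, 6.32, 8.13 and 4.74 CPM in ileal KO libraries, 13.2, 13.2 and 16.3 CPM in colonic control libraries and 9.19, 13.6 and 12.5 CPM in colonic KO libraries. It rose by 0.81 on the log2 scale in control (SE 0.25, adjusted p = 0.0317; without colonic control replicate 3, 0.68 and adjusted p = 0.119) and by 0.88 in KO mice (SE 0.25, adjusted p = 0.0223). The inhibitor Cdkn2b went the other way, from 104, 119 and 96.7 CPM in ileum to 66.2, 57.3 and 75.8 CPM in colon in control mice and from 112, 113 and 127 CPM to 57.4, 67.1 and 60.2 CPM in KO mice. Its log2 fold changes were -0.68 (SE 0.13, adjusted p = 0.00262) and -0.93 (SE 0.13, adjusted p = 0.000312). Relative to epithelial markers, a scale that put the median of all tested genes at 0.99 and 1.13, the values of Cdkn2b were 0.29 and 0.19. The cyclins Ccnd1 and Ccnd2 were called lower in colon in both genotypes.

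Within ileum the 53 genes varied with the library more than with the genotype. Ileal control replicate 3 and ileal KO replicate 1, 1 library of each genotype, stood above the other 4 ileal libraries in 42 of the 53 genes, against 23.2% of all tested genes, and below them in 0, against 27.2%. Relative to the mean of the other 2 libraries of the same genotype, the median ratio over the 53 genes was 2.16 in control and 1.51 in KO mice, beside 0.965 and 0.967 over all tested genes. By role, the medians in control and KO mice were 1.7 and 1.28 for the cyclins and transcription factors, 2.26 and 1.35 for the mitotic kinases, 2.16 and 1.48 for chromosomes and spindle, 2.5 and 1.82 for licensing and helicase, and 2.13 and 1.86 for DNA synthesis. These 2 libraries were set apart by their muscle markers and not by these genes, and no test was made of the difference.

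The ratios differed between genes. Mki67 was 2.16-fold higher in control replicate 3 and 1.65-fold higher in KO replicate 1 than in the other libraries of its genotype, Mcm6 2.5-fold and 2.18-fold, and Uhrf1 2.94-fold and 2.21-fold. Mcm5, chosen after its values were seen as the gene with the largest ratio in control mice, stood in ileum at 11.7, 18.2 and 48.7 CPM (control) and 41.7, 19.1 and 19.7 CPM (KO) (ratios of 3.25 and 2.15). Birc5 had ratios of 0.979 and 0.826, although it is one of the mitotic genes with the firmest tissue difference. The 11 genes that were not above the other 4 libraries in both were Cdk1, Ccnb1, Ccnb2, Mad2l1, Birc5, Cdca8, Cenpa, Tpx2, Gins1, Gins2 and Tyms. They include the listed cyclin B genes Ccnb1 (ratios of 1.7 and 1.28) and Ccnb2 (1.47 and 1.07) and their kinase Cdk1 (1.49 and 0.954). Ccna2, which was above in both, had ratios of 1.46 and 1.21. The other 4 libraries spread 1.25-fold for Ccna2 and 1.78-fold for Ccnb1, so this count also depends on their spread. Of the 3 listed genes of the chromosomal passenger complex, the 11 genes include 2, Birc5 and Cdca8, whereas its kinase Aurkb had ratios of 3.22 and 2.25.

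**Figure D3:**
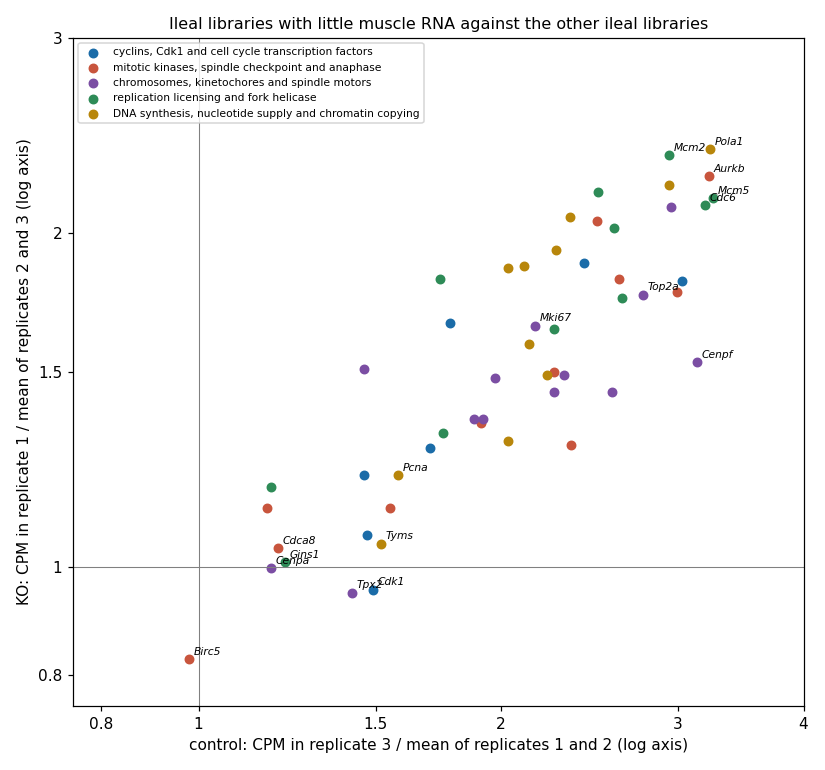
Ratio of each gene's CPM in ileal control replicate 3 (horizontal) and ileal KO replicate 1 (vertical), the libraries with little muscle RNA, to the mean of the other 2 libraries of the same genotype, on log axes, with 1 point per gene coloured by role and lines at a ratio of 1. Points spread from Birc5 (0.979 and 0.826) to Mcm5 (3.25 and 2.15) and Pola1 (3.23 and 2.38).

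Markers of other cells moved in the same 2 libraries. The Paneth cell markers, which lie at the crypt base, were above the other 4 ileal libraries in 4 of 4 genes, with median ratios of 2.5 and 1.82. Of the 4 crypt stem cell markers, Lgr5 and Ascl2 were above and Smoc2 and Axin2 were not in both, and their sum was 116 and 107 CPM against 71.7 to 93.4 CPM. The 6 B cell markers were above in 6 of 6 genes, with a sum of 48.7 and 60.2 CPM against 3.79 to 8.28 CPM. Of the 6 germinal centre markers 5 were above. The epithelial sum was 18000 and 18900 CPM, within or just under the 18700 to 22500 CPM of the other 4. Of the 6 epithelial markers 0 were above and 2, Epcam and Krt20, were below, while Krt19 had ratios of 1.75 and 1.06. Of the 4 endothelial markers 1, Kdr, was above (ratios of 2.46 and 2.04) and 0 were below. The T cell sum was lower, at 15.5 and 15.7 CPM against 38.1 to 47.4 CPM. Of its 6 markers 5 were below the other 4 libraries, while Cd2 was above (ratios of 1.62 and 2.12). The stromal sum was lower, at 43.3 and 40.8 CPM against 313 to 599 CPM, with 6 of 6 markers below. The plasma cell sum was 814 and 845 CPM against 1130 to 3180 CPM. Of its 5 markers 3 were below, and Sdc1 had ratios of 1.21 and 1.01. The sum of enteric glia and neurons was 0.68 and 0.537 CPM against 3.36 to 6.17 CPM, with 4 of 4 markers below. The parts of crypt, lymphoid, muscle and other RNA in the higher levels of the 53 genes were not tested.

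**Figure D4:**
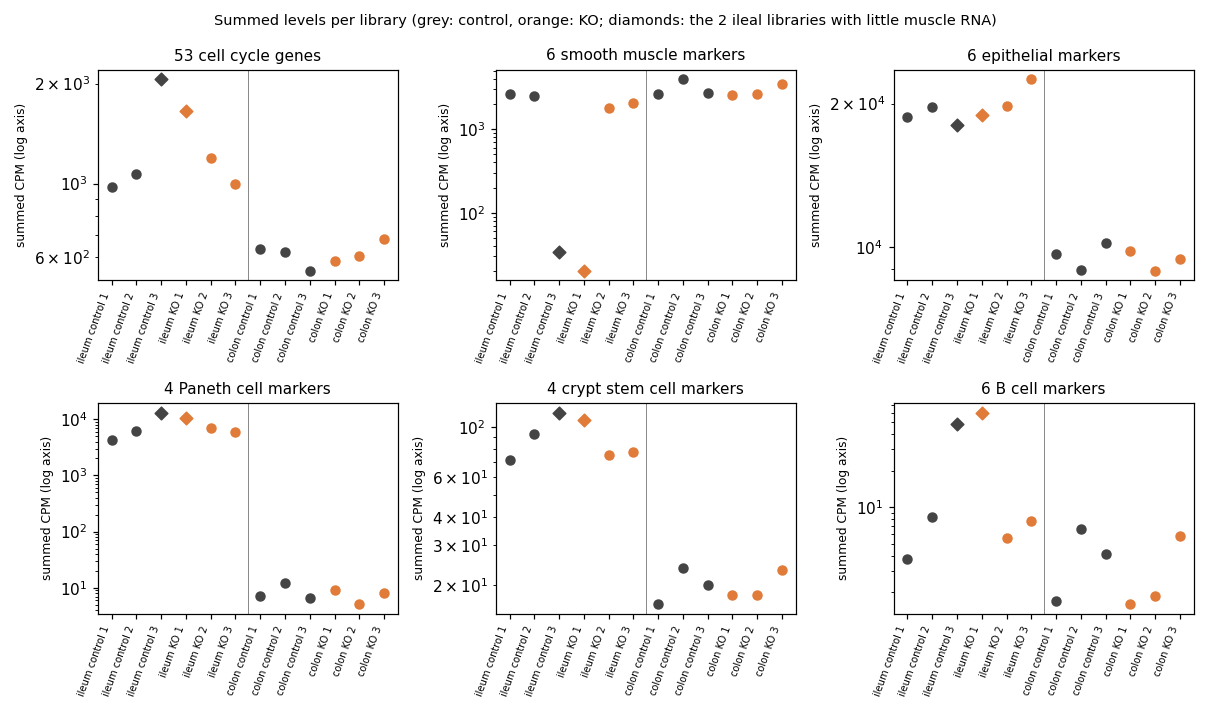
Summed CPM (log axes) of the 53 genes and of 5 marker lists in the 12 libraries, grey for control and orange for KO mice, with diamonds for the 2 ileal libraries with little muscle RNA. In these 2 libraries the sum of the 53 genes was 2060 and 1650 CPM and the B cell sum 48.7 and 60.2 CPM, each above the other ileal libraries, while the muscle sum was 34.2 and 20.2 CPM.

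The comparison of Slc39a8-IEC KO with control mice asks whether the epithelial deletion altered the genes of dividing cells. No member was called in ileum, in colon, over both tissues or in the difference between the tissues. edgeR called 0 of the 16558 tested genes in each of these comparisons, with unadjusted p under 0.05 for 1.52%, 2.33%, 3.87% and 1.02% of them, and DESeq2 and limma-voom also called 0 of the 53 genes. The deleted gene Slc39a8 was thus not called either, although the DESeq2 analysis of the study, with ileum and colon combined, did call it. A lack of calls here therefore does not show a lack of effect. At an unadjusted p under 0.05 there was 1 of the 53 genes over both tissues and 0 in the other comparisons. The median log2 fold change of the 53 genes was -0.07 in ileum, with 35 negative, 0.11 in colon, with 20 negative, and 0.02 over both tissues, with 23 negative. The ileal median rested on ileal control replicate 3: without that library it was 0.43, with 3 genes negative, and without ileal KO replicate 1 it was -0.34. Without both of these libraries, which hold little muscle RNA, the median was 0.11 in ileum, with 9 negative, and 0.12 over both tissues, with 11 negative, and 0 of the 53 genes were called. The count of negative values over both tissues ran from 8 without ileal control replicate 3 to 40 without ileal control replicate 1, and that in colon was 9 with library sizes alone, so these counts give no stable direction. Standard errors ran from 0.17 to 0.49 in ileum and from 0.18 to 0.52 in colon.

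The single gene at an unadjusted p under 0.05 was Mad2l1, with a log2 fold change of -0.31 over both tissues (SE 0.13, unadjusted p = 0.0341, adjusted p = 0.998), -0.30 in ileum and -0.33 in colon. Its libraries, given above, overlapped between the genotypes in each tissue. In ileum the smallest p after Mad2l1 belonged to Ccnb1 (-0.37, SE 0.25) and Kif23 (-0.37, SE 0.26), each with an adjusted p of 1, and Kif23 turned to 0.02 without ileal control replicate 3. In colon the smallest p belonged to Tpx2 (0.32, SE 0.18), Cdt1 (0.66, SE 0.38) and Mad2l1, each with an adjusted p of 1. Over both tissues Ube2c (0.39, SE 0.22) and Cdt1 (0.42, SE 0.26) followed Mad2l1, each with an adjusted p of 0.998. In ileum the genotypes overlapped for all 53 genes, while 2.13% of all tested genes lay higher and 1.57% lower in KO mice without overlap. In colon they lay above the control libraries for 5 genes, Ccnb2, Ube2c, Tpx2, Mcm6 and Rrm1, against 6.98% of all tested genes, and below for 0, against 5.85%. For each of these 5 the exact two-sided permutation test gave p = 0.1, the smallest that 3 libraries against 3 allow. Groups of 3 without overlap always give this value, so it follows from how the 5 were picked and adds no support. In ileum the genotypes overlapped for these 5 genes.

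**Figure D5:**
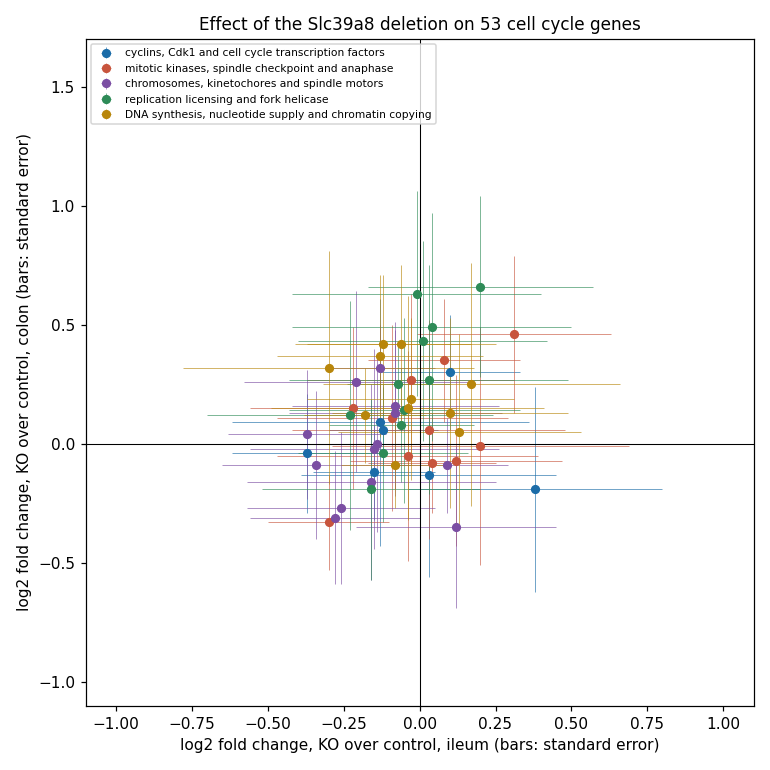
Log2 fold change of KO over control in ileum (horizontal) and colon (vertical) for the 53 genes, with standard errors (edgeR, TMM scaling), coloured by role. Points cluster around 0, from -0.37 to 0.38 in ileum and from -0.35 to 0.66 in colon, and none was called in either tissue.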

How the data were processed

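The authors aligned reads with STAR to the mouse genome (mm10) and deposited 1 table of expected counts per gene and library, not normalized. The study names UMI-tools for removing duplicate reads and FeatureCounts for counting, which gives whole reads, while 93.7% of the deposited values were whole to 2 decimals, so which program made the table is not settled. Oligo-dT priming and mucosal RNA were used, with 3 mice per group. The table's 92 spike-in lines held 0 counts and were left out. Symbols came from GENCODE M21. Expected counts were rounded. edgeR 4.0.16 (R 4.3.3) filterByExpr, TMM, glmQLFit and glmQLFTest were run over all 16558 genes and 4 groups, with Benjamini-Hochberg adjustment and a threshold of 0.1. The group comparisons shared 1 estimate of the spread from all 4 groups. Genotype over both tissues had tissue as an additive term. Alternatives were DESeq2 1.42.0, limma-voom 3.58.1, other scalings, filters and thresholds, a replicate block and omitted libraries. Scaling to epithelial markers was chosen after seeing the data. Permutation tests used log2(CPM + 0.5). Steps were tested on simulated data.

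The 53 genes, their 5 role lists, 3 lists of 61 further genes and 11 marker lists were chosen with earlier results of these data known. Values are given in every library for the gene with the highest TPM and the smallest tissue p of each role list, the 3 smallest genotype p, the largest tissue fold changes, and the smallest p in each direction of the other lists. Promoters are RefSeq windows. Figures used matplotlib 3.10.9 in Python 3.11.15. The study's other experiments were not analysed here.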

Additional observations from a re-analysis of the deposited data

How the results depend on the processing

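The median of the 53 genes in the tissue comparisons was below 0 under every setting tried. Relative to epithelial markers, however, the KO median of -0.06 was small beside the spread between replicates. The pooled standard deviation of the mean log2 CPM of the 53 genes was 0.37. The count of genes called lower in control mice stayed within 1.5-fold of 43 except relative to epithelial markers. Scaled by library size alone, which put the all-gene median at 0.24 in control and 0.29 in KO mice, 25 genes were called lower in KO mice. Over all genes, 1908 were then called lower and 4637 higher in KO mice. That scaling changed the share of lower calls over all genes from 54.7% to 33.6% in control and from 53.9% to 29.2% in KO mice, and upper-quartile factors changed it to 41.7% in KO mice. Relative to epithelial markers these shares were 7.17% and 5.64%, 3 genes were called higher and 12 lower in control (median -0.38) and 5 higher and 5 lower in KO mice (median -0.06), and, with the all-gene median at 0.99 and 1.13, the sign turned for Pcna (0.61 in control, 0.73 in KO), Cdkn2b (0.29 and 0.19), Mki67 in KO (0.21) and Tpx2 in KO (0.09). Without the 2 ileal libraries with little muscle RNA the control median was -0.94. Leaving out 1 library at a time gave 32 to 48 genes called lower in control (median -1.52 to -0.94) and 23 to 50 in KO mice (median -1.27 to -0.89). Over all genes, 3204 and 2949 were called lower where the control counts were 32 and 48. Where the KO counts were 23 and 50, these were 2967 and 3747. The KO count of 50 came without ileal control replicate 3, which is outside that comparison but enters its estimate of the spread. For genotype, leaving out 1 library gave medians of -0.34 to 0.43 in ileum, 0.01 to 0.15 in colon, -0.08 to 0.25 over both tissues and -0.23 to 0.41 for the difference, 0 calls throughout, and -0.61 to 0.02 for Kif23 in ileum (0.02 without ileal control replicate 3). Deviations of same-numbered ileal and colonic libraries correlated at -0.02, 0.17 and -0.06 in control and at 0.22, 0.08 and 0.3 in KO mice, where each library correlated best with its own number, a hint from the data and not the design. Not every pair passed 0.1 and no label ties a number to a mouse, so the numbers were not taken to pair the samples. With a replicate block, 39 genes were called lower in each genotype and 0 between the genotypes. Of the tissue calls over all genes, 54.7% in control and 53.7% in KO mice were then lower. These are shares of the calls and not of all tested genes, so they are no background for the 39 genes. The effect of depth was not tested.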

Other observations

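Some marker lists beyond epithelium also differed between the tissues. In control mice edgeR called 4 of 4 Paneth cell, 3 of 4 crypt stem cell, 4 of 6 T cell, 3 of 5 plasma cell and 1 of 6 B cell markers lower in colon. Over all tested genes 19.6% were called lower and 16.2% higher, so the B cell count is near the share of all genes. The smooth muscle, stromal and enteric glia and neuron markers had 0 calls in control mice. Their medians were positive, at 0.93, 0.50 and 1.13 on the log2 scale. In KO mice 3 of 4 glia and neuron markers were called higher, against 17.1% of all tested genes. In ileal control replicate 3 the sums of these lists, in the same order, were 34.2, 43.3 and 0.68 CPM. Ileal control replicates 1 and 2 gave 2490 to 2640, 313 to 599 and 4.73 to 6.17 CPM. The marker comparisons between tissues were not made without the libraries with little muscle RNA. Of 4 endothelial markers 1 was called lower in control and 1 higher in KO mice. Of the germinal centre markers 3 of 6 passed the filter on low counts and 0 were called in either genotype. The crypt stem cell markers had a median log2 fold change of -1.96 in control and -1.68 in KO mice, beside -1.33 and -1.17 for the 53 cell cycle genes, and the difference between these lists was not tested. These medians include the 2 ileal libraries with little muscle RNA, where Lgr5 (ratios of 4.17 and 2.98) and Ascl2 (4.46 and 5.66) were high. Smoc2 and Axin2 were not above the other ileal libraries in both. Ascl2 held only 3 to 95 counts per library. The sum of the crypt stem cell markers was 16.4 to 23.7 CPM over the 6 colonic libraries.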
